A study of Danio rerio with 6 samples.

Results

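Wnt pathway genes were followed in dissected zebrafish hearts across the first hours of atrioventricular valve formation, at 56 and 48 hours post fertilization (hpf). They were the genes whose name in the deposited tables begins with *wnt*, *fzd* or *dkk* and a digit, or with *sfrp*, *axin*, *rspo*, *wif1*, *tcf7*, *lef1* or *dvl*, or is *lrp5* or *lrp6*. This rule, which uses no measured value, found 64 of the 29978 genes listed: 25 ligands, 16 receptors, 13 secreted modulators, 5 cytoplasmic and 5 nuclear proteins. RNA came from 3 pools of hearts at 56 hpf and 3 pools at 48 hpf, with 30 hearts in each pool, so that a value averages myocardium, endocardium and whatever else was dissected with them. The labels set no pool apart by a treatment. The study's methods describe phenylthiourea treatment of all animals, which prevents pigment. The labels give the AB line for both stages, whereas the study's methods give embryos with the *myl7:EGFP* transgene, which marks cardiomyocytes through the *myl7* promoter. The question was which Wnt genes differ between the stages at which endocardial cells cluster (48 hpf) and extend into the cardiac jelly (56 hpf).

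Wnt proteins are secreted lipid-modified ligands that bind Frizzled receptors, in the β-catenin branch together with the co-receptors Lrp5 or Lrp6. Dishevelled and Axin pass the signal on, the complex that destroys β-catenin is held off, and β-catenin joins Tcf and Lef proteins on DNA. Secreted proteins tune the signal outside the cell: Sfrp and Wif1 proteins bind Wnts, Dkk1 blocks Lrp5 and Lrp6, and R-spondins, through Lgr receptors, keep Frizzled on the cell surface. Other Wnts act without β-catenin on cell shape and movement. In zebrafish, loss of the β-catenin brake Apc causes excess endocardial cushions in the heart, and in mouse the ligand Wnt9b is made by endocardial cells of the forming valves.

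Between 14369087 and 26942838 reads were counted on genes per library. The values below are normalized counts, that is reads divided by a size factor for the depth of the library, and 3 reads, taken as the floor of detection, correspond to 3.04, 2.96 and 2.50 normalized counts in the 56 hpf libraries and to no more than about 4 in any 48 hpf library. Levels of different genes are not compared, since longer genes collect more reads. None of 10 myocardial and none of 8 endocardial genes was at or under the floor in all pools. That does not tell heart from other tissue, since it also held for the muscle, epidermal, arch and endodermal markers given below. The myocardial list had sums of 334605 to 374238 normalized counts at 56 hpf and 364473 to 979375 at 48 hpf. Replicate 1 at 48 hpf stood apart from the other 48 hpf pools in this list (364473, against 795566 and 979375). In a fit across the 20805 genes with enough reads, 1.08% had an adjusted p under 0.05 (limma, Benjamini-Hochberg, replicate number as a block), 0.87% higher and 0.211% lower at 56 hpf. Fold changes are on the log2(normalized count + 1) scale, 56 over 48 hpf, which understates changes of genes with few reads. The labels do not say that the pools are separate clutches, so p-values measure the spread between pools only.

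Of the 64 genes, 58 had enough reads for the test. The other 6 were *wnt1*, *wnt5a*, *wnt7ba*, *wnt16*, *rspo1* and one of the 2 genes named *wnt8a*, with at most 21 reads in any library. Of the 58, *sfrp2*, *rspo4* and *fzd10* rose at 56 hpf and none fell (adjusted p under 0.05, limma with the replicate block). Of all genes tested, 0.87% were higher and 0.211% lower. *rspo4* had enough reads only through its 56 hpf pools, so its count is no measure of the group, and with at least 10 reads required in every library, as 47 of the 58 had, the genes called were the other 2, *sfrp2* and *fzd10*. Without adjustment, 11 genes had a p under 0.05 and were higher (19.0%, beside 11.1% of all genes tested) and 8 were lower (13.8%, beside 7.42%). The count of genes lower at an adjusted p under 0.05 was also 0 by edgeR's quasi-likelihood test, edgeR's likelihood ratio test and DESeq2. By these tests 0.75%, 8.37% and 7.25% of all genes passed in either direction, and the share that was lower is not given here. The count of 0 is therefore not read as a result about the Wnt genes. For 22 of the 58 (37.9%, beside 24.4% of all genes tested) every 56 hpf pool lay on the same side of every 48 hpf pool, 10 of them higher (17.2%, beside 13.1%) and 12 lower (20.7%, beside 11.3%). The log2 fold change was above 0 for 34 genes (58.6%, beside 49.2% of all genes tested). The median log2 fold change of the 58 genes was 0.20, against -0.01 for all genes tested. With the authors' own size factors these medians were 0.32 and 0.11. The median of the 58 genes fell to 0.04 without replicate 3 at 48 hpf. This fit, like each one below that left out a single pool, also had no replicate block. Without the block and with all pools the median was 0.20. Replicate 3 at 48 hpf was the pool with the lowest value of 21 of the 58 genes (36.2%, beside 20.8% of all genes tested).

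**Figure D1:**
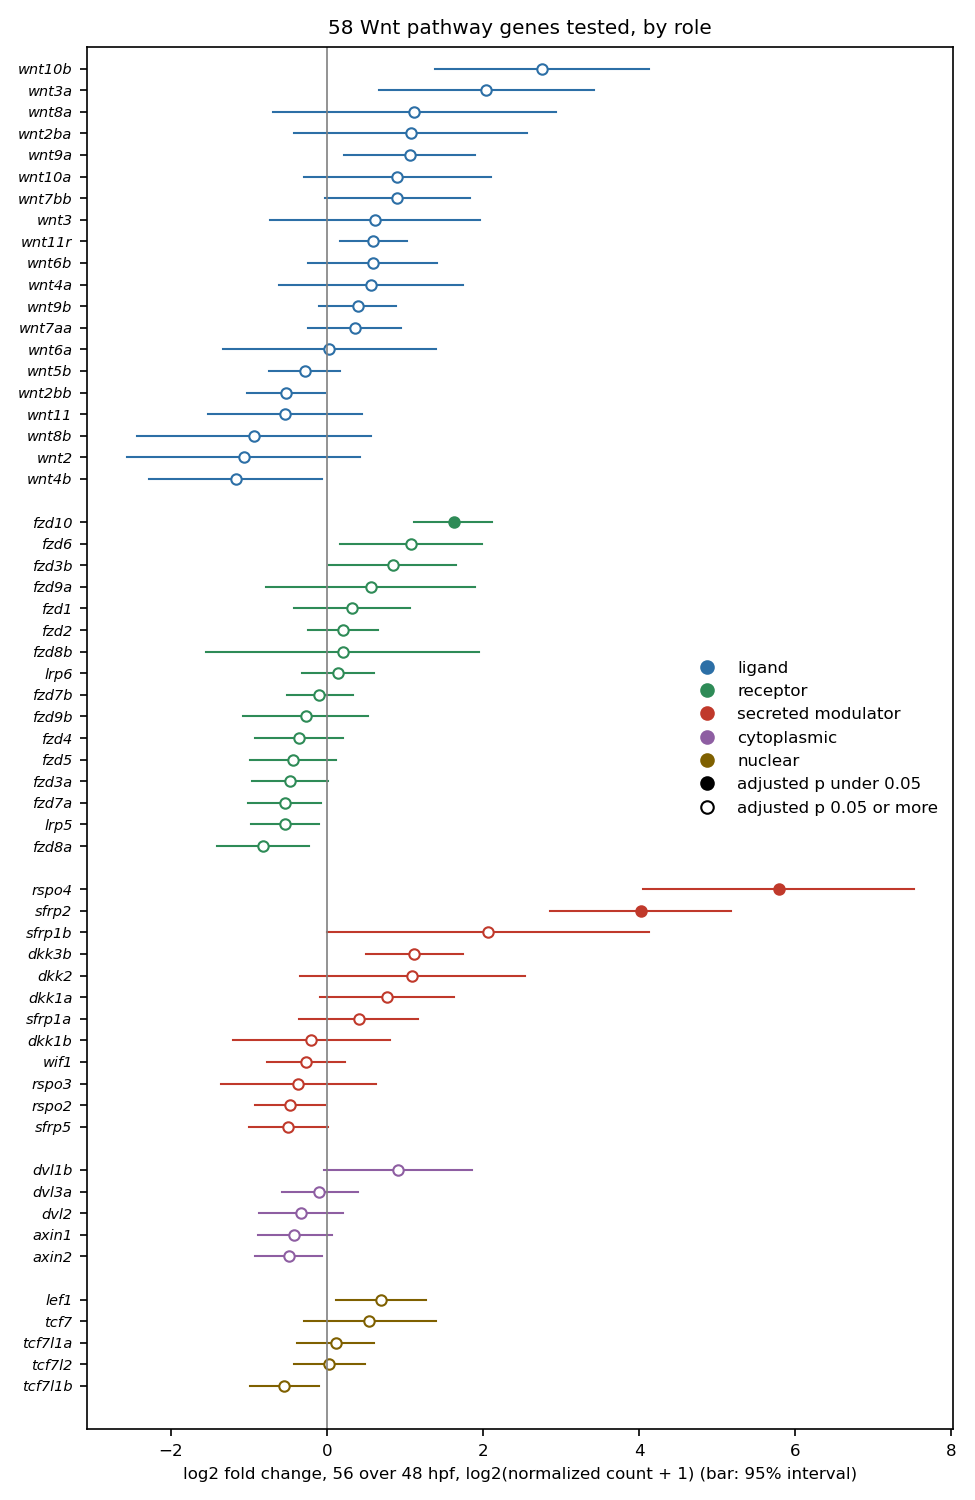
Log2 fold change, 56 over 48 hpf, on the log2(normalized count + 1) scale for the 58 Wnt pathway genes tested, grouped by role, with 95% intervals from limma. Filled points mark an adjusted p under 0.05: *fzd10* (1.62) among the receptors and *rspo4* (5.79) and *sfrp2* (4.02) among the secreted modulators.

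Of the 25 ligands, 20 were tested, and none passed the test in either direction by limma, beside 1.08% of all genes tested. Without adjustment, 4 had a p under 0.05 and were higher (20%, beside 11.1% of all genes tested) and 2 were lower (10%, beside 7.42%). *wnt10b* (ENSDARG00000040925), a ligand of the β-catenin branch, had normalized counts of 68.0, 61.1 and 79.1 at 56 hpf, against 20.0, 9.94 and 3.81 at 48 hpf, in the order of replicates 1, 2 and 3 as in all such lists. Every 56 hpf pool was above every 48 hpf pool, and replicate 3 at 48 hpf rested on 3 reads. It averaged 69.4 ± 9.07 in the 56 hpf pools and 11.3 ± 8.17 in the 48 hpf pools (SD, n = 3 each), and its log2 fold change was 2.76 (SE 0.58, adjusted p = 0.0812, limma). It passed without the replicate block (adjusted p = 0.0425, limma), by edgeR's likelihood ratio test (5.52e-04) and by DESeq2 (0.00108), tests by which 2.69%, 8.37% and 7.25% of all genes passed. It also passed by limma with the block without replicate 1 at both stages (adjusted p = 0.0294). That fit called 2035 of all genes tested, against 225 in the main fit. Of the limma fits without a single pool, which had no block, *wnt10b* passed without replicate 1 at 48 hpf (0.0165). That fit called 1187 of all genes tested, against 560 with all pools and no block. *wnt10b* passed without replicate 3 at 48 hpf too (0.0491), beside 0.0425 with all pools and no block. Over all 19 alternatives the adjusted p lay between 5.52e-04 and 0.45.

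*wnt3a* (ENSDARG00000058822), another ligand of the β-catenin branch, had 136, 200.0 and 242 normalized counts at 56 hpf, against 85.3, 62.5 and 16.5 at 48 hpf. The stages did not overlap, and the lowest pool was again replicate 3 at 48 hpf. The log2 fold change was 2.04 (SE 0.58, adjusted p = 0.137, limma), and the adjusted p was 0.0242 by the likelihood ratio test and 0.00495 by DESeq2. It passed by limma without replicate 1 at both stages (0.0323) or at 48 hpf alone (0.0369), within a range of 0.00495 to 0.533 over 20 alternatives. These limma fits called 2035 and 1187 of all genes tested, against 225 in the main fit. With all pools and no block the adjusted p was 0.0925. Without replicate 3 at 48 hpf the log2 fold change was 1.34 (adjusted p = 0.0852, limma), and without replicate 3 at both stages it was 1.16 (0.201).

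Both Wnt9 genes had positive log2 fold changes, and neither passed the test. *wnt9a* (ENSDARG00000063437) had 354, 271 and 515 normalized counts at 56 hpf, against 277, 158 and 123 at 48 hpf (log2 fold change 1.06, SE 0.35, adjusted p = 0.186, limma). Its pools overlapped, since replicate 1 at 48 hpf (277) lay above replicate 2 at 56 hpf (271). Without that 48 hpf pool, which made the stages overlap, the adjusted p was 0.0434, the lowest over 20 alternatives, of which the highest was 0.61. That fit had no block and called 1187 of all genes tested, against 560 with all pools and no block. With all pools and no block the adjusted p of *wnt9a* was 0.148. *wnt9b* (ENSDARG00000037889) had 1955, 1426 and 1546 normalized counts at 56 hpf, against 1164, 1375 and 1199.9 at 48 hpf. Its pools did not overlap, but the difference was small, with a log2 fold change of 0.39 (95% interval -0.10 to 0.88, adjusted p = 0.367, limma). *klf2a*, the flow-responsive factor the study is about and no member of the pathway, had 1196, 2737 and 2170.3 normalized counts at 56 hpf, against 464, 788 and 1234 at 48 hpf. The log2 fold change of *klf2a* was 1.32 (SE 0.23, adjusted p = 0.0625, limma), with overlapping pools, so it did not pass the test here. The tests differ, as the study used edgeR, whose likelihood ratio test passed 8.37% of all genes here, against 1.08% by limma. The study reported upregulation of *klf2a* by sequencing and by quantitative PCR. Its lowest 56 hpf pool was replicate 1, the pool in which *wnt9b* was highest.

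The ligands of cell movement did not pass the test, and neither did *wnt4b*, *wnt2* and *wnt2bb*, which are given after them. *wnt5b* (ENSDARG00000034894), a ligand that acts without β-catenin, had 1194, 1311 and 1115 normalized counts at 56 hpf, against 1341, 1436 and 1634 at 48 hpf. Its pools did not overlap, and the log2 fold change was -0.28 (95% interval -0.74 to 0.17, adjusted p = 0.467, limma). *wnt11r*, of the same branch, had a log2 fold change of 0.59 (SE 0.18, adjusted p = 0.158, limma), with overlapping pools. That of *wnt11* was -0.54 (SE 0.42, adjusted p = 0.530, limma), also with overlapping pools. *wnt4b* (ENSDARG00000040159) had 33.5, 14.8 and 49.9 normalized counts at 56 hpf, against 88.0, 60.4 and 57.1 at 48 hpf (log2 fold change -1.17, SE 0.47, adjusted p = 0.247, limma). *wnt2* (ENSDARG00000041117) had 4.06, 19.7 and 10.8 normalized counts at 56 hpf, against 22.7, 20.6 and 21.6 at 48 hpf (log2 fold change -1.07, SE 0.63, adjusted p = 0.404), on no more than 29 reads in a library. The pools of *wnt4b* and *wnt2* did not overlap, and these were the ligands with the most negative fold changes of the 20 tested. *wnt2bb*, which in zebrafish mesoderm directs liver formation, had 316, 544 and 613 normalized counts at 56 hpf, against 569, 665 and 833 at 48 hpf, with overlapping pools (-0.53, adjusted p = 0.244).

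**Figure D2:**
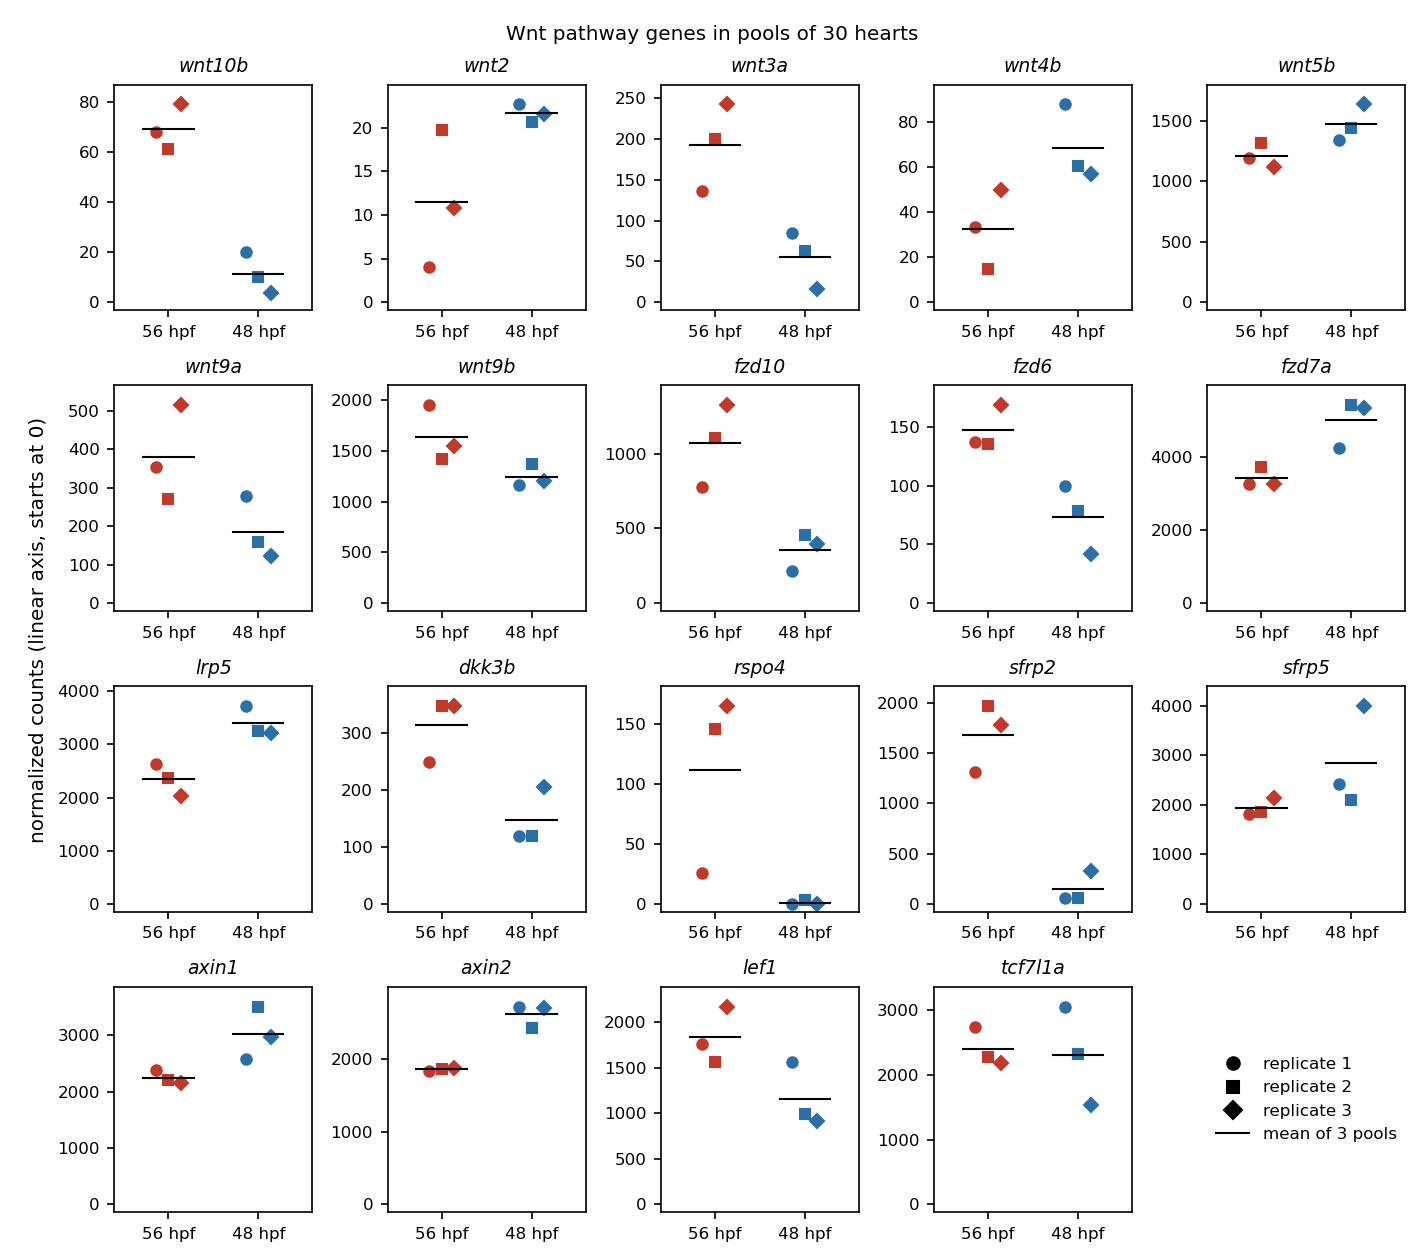
Normalized counts of 19 Wnt pathway genes in each pool of hearts, with 56 hpf on the left and 48 hpf on the right of each panel, a symbol for each replicate and a line at the mean of the 3 pools. For *sfrp2* the 56 hpf pools lie between 1307 and 1971 and the highest 48 hpf pool at 329, whereas for *tcf7l1a* the stages overlap.

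Among the 16 receptors, all with enough reads, *fzd10* rose (6.25%, beside 0.87% of all genes tested) and none fell (beside 0.211%). Of their log2 fold changes, 8 were above 0 (50%, beside 49.2% of all genes tested) and 8 below, so the signs are no result about the receptors. *fzd10* (ENSDARG00000068213), a Frizzled receptor, had 778, 1104 and 1327 normalized counts at 56 hpf, against 216, 457 and 397 at 48 hpf. The lowest pool at 56 hpf was above the highest at 48 hpf. It averaged 1070.0 ± 276 in the 56 hpf pools and 357 ± 126 in the 48 hpf pools (SD, n = 3 each), and its log2 fold change was 1.62 (SE 0.21, adjusted p = 0.0267, limma). By edgeR's quasi-likelihood test, by which 0.75% of all genes passed, the adjusted p was 0.0320. The call was lost in 4 of the fits that left out pools: without replicate 2 at both stages (adjusted p = 0.174), without replicate 2 at 48 hpf (0.0676), and without replicate 2 (0.143) or replicate 3 (0.158) at 56 hpf, with log2 fold changes between 1.45 and 1.83. In that order these fits called 26, 132, 97 and 112 of all genes tested. The main fit called 225, and the fit with all pools and no block 560.

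The Frizzled gene with the most reads, *fzd7a* (ENSDARG00000060004), which together with *fzd7b* acts in cell movements of the zebrafish gastrula, had 3264, 3731 and 3269 normalized counts at 56 hpf, against 4245, 5424 and 5343 at 48 hpf. The stages did not overlap, and the log2 fold change was -0.54 (95% interval -1.01 to -0.08, adjusted p = 0.213, limma). The co-receptor gene *lrp5* (ENSDARG00000006921) had 2628, 2367 and 2022 normalized counts at 56 hpf, against 3727, 3256 and 3209.9 at 48 hpf, also without overlap (-0.54, 95% interval -0.98 to -0.10, adjusted p = 0.192). Its partner *lrp6* had a log2 fold change of 0.14 (95% interval -0.32 to 0.60). *fzd6* (ENSDARG00000042731), a receptor of the planar cell polarity branch in mouse, had 137, 136 and 169 normalized counts at 56 hpf, against 100.0, 78.1 and 41.9 at 48 hpf (log2 fold change 1.08, SE 0.38, adjusted p = 0.207, limma). Its pools did not overlap either. The receptor with the most negative log2 fold change was *fzd8a*, which had 309, 396 and 396 normalized counts at 56 hpf, against 757, 723 and 484 at 48 hpf (-0.82, SE 0.25, adjusted p = 0.157).

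The secreted modulators held the largest change. *sfrp2* (ENSDARG00000070050), a secreted protein with the Wnt-binding domain of Frizzled, had 1307, 1971 and 1778 normalized counts at 56 hpf, against 58.7, 54.0 and 329 at 48 hpf. All 56 hpf pools were far above the 48 hpf pools, of which replicate 3 was several times as high as the others. It averaged 1685 ± 342 in the 56 hpf pools and 147 ± 157 in the 48 hpf pools (SD, n = 3 each), and its log2 fold change was 4.02 (SE 0.49, adjusted p = 0.0229, limma; 0.0382 by edgeR's quasi-likelihood test). Over 20 alternatives it was 3.44 to 4.85, the highest without replicate 3 at 48 hpf. *rspo4* (ENSDARG00000038593), an R-spondin, had 25, 148 and 199 reads at 56 hpf, against 0, 4 and 0 reads at 48 hpf. Replicates 1 and 3 at 48 hpf were under the floor, and replicate 1 at 56 hpf was well below the other 56 hpf pools. In normalized counts these were 25.4, 146 and 166 at 56 hpf and 0, 2.84 and 0 at 48 hpf, a log2 fold change of 5.79 (SE 0.73, adjusted p = 0.0251, limma; 0.0279 by the quasi-likelihood test). With a total of 4 reads at 48 hpf its size depends on the pseudocount and the fit, from 3.19 to 6.65 over 19 alternatives. Neither gene passed without replicate 2 at both stages (adjusted p = 0.0801 for *sfrp2* and 0.174 for *rspo4*), without replicate 2 at 56 hpf (0.0675 and 0.101) or without replicate 3 at 56 hpf (0.0627 and 0.0937). In that order these fits called 26, 97 and 112 of all genes tested, against 225 in the main fit. More cells of a type and more RNA per cell cannot be told apart in pooled hearts.

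The related genes did not pass the test. *sfrp5* (ENSDARG00000039041) had 1807, 1859 and 2145 normalized counts at 56 hpf, against 2415, 2094 and 4005 at 48 hpf, with overlapping pools (log2 fold change -0.50, SE 0.21, adjusted p = 0.278, limma). In replicate 3 at 48 hpf it was well above all other pools, the pool in which *sfrp2* was also highest for its stage. *sfrp1a* had a log2 fold change of 0.41 (95% interval -0.36 to 1.17), and *sfrp1b*, on at most 57 reads, one of 2.06 (adjusted p = 0.270). Of the other R-spondins, *rspo2* had 457, 630.4 and 518 normalized counts at 56 hpf, against 687, 864 and 673 at 48 hpf, without overlap (-0.47, adjusted p = 0.247), the opposite sign to *rspo4*. *rspo3* had a log2 fold change of -0.37 (95% interval -1.36 to 0.63). *dkk3b* (ENSDARG00000070683), from a branch of the Dickkopf family whose part in Wnt signalling is less clear, had 249, 348 and 347 normalized counts at 56 hpf, against 119, 119 and 206 at 48 hpf. Its pools did not overlap, and the log2 fold change was 1.12 (SE 0.26, adjusted p = 0.0954, limma). It passed by edgeR's likelihood ratio test (adjusted p = 0.00923), by DESeq2 (0.0228) and by limma without replicate 3 at 48 hpf (0.0393), while the highest adjusted p over 20 alternatives was 0.665. The limma fit without that pool had no block, and with all pools and no block the adjusted p was 0.0813. The Lrp blockers *dkk1a* (0.77, 95% interval -0.09 to 1.62) and *dkk1b* (-0.20, 95% interval -1.20 to 0.80) and the Wnt binder *wif1* (-0.27, 95% interval -0.77 to 0.23) did not pass.

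Inside the cell, none of the 5 cytoplasmic and none of the 5 nuclear members passed the test, and all 10 had a log2 fold change below 1 in size. Of all genes tested, only 1.08% passed and 15.5% had a log2 fold change of at least 1 in size. These counts are therefore not read as a result about these members. *axin2* (ENSDARG00000014147), a scaffold of the β-catenin destruction complex that β-catenin signalling itself switches on, had 1828, 1859 and 1871 normalized counts at 56 hpf, against 2712, 2416 and 2698 at 48 hpf. The stages did not overlap and the 56 hpf pools lay close together, with a mean of 1852 ± 22.3 (SD, n = 3 pools), against 2609 ± 167 (SD, n = 3) at 48 hpf. The log2 fold change was -0.49 (95% interval -0.92 to -0.06, unadjusted p = 0.0306, adjusted p = 0.221, limma). *axin1* (ENSDARG00000026534), the constitutive scaffold, had 2377, 2208 and 2145 normalized counts at 56 hpf, against 2584, 3508 and 2969.9 at 48 hpf, also without overlap (-0.42, 95% interval -0.89 to 0.06, adjusted p = 0.320). The log2 fold changes of both Axin genes were below 0 in all 20 alternatives, and neither passed in any.

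*lef1* (ENSDARG00000031894), a DNA-binding partner of β-catenin and in many tissues its target, had 1766, 1569 and 2175 normalized counts at 56 hpf, against 1565, 997 and 917 at 48 hpf. Thus *lef1* and *axin2* had fold changes of opposite sign. The *lef1* pools were separated by little, as replicate 2 at 56 hpf (1569) was just above replicate 1 at 48 hpf (1565). The log2 fold change was 0.69 (95% interval 0.11 to 1.27, adjusted p = 0.205, limma). The adjusted p was 0.0415 without replicate 1 at both stages and 0.0394 without replicate 1 at 48 hpf, within a range up to 0.781 over 20 alternatives. Those fits without replicate 1 called 2035 and 1187 of all genes tested, against 225 in the main fit. With all pools and no block the adjusted p of *lef1* was 0.169. *tcf7l1a* (ENSDARG00000038159), which in zebrafish represses Wnt targets during head formation, had 2731, 2270 and 2183 normalized counts at 56 hpf, against 3049, 2314 and 1539 at 48 hpf, with overlapping pools (0.11, 95% interval -0.39 to 0.60). *tcf7l1b* had 1153, 964 and 1048 normalized counts at 56 hpf, against 1587, 1660.2 and 1382 at 48 hpf, without overlap (-0.55, adjusted p = 0.195). *tcf7l2* had a log2 fold change of 0.03 (95% interval -0.42 to 0.48).

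Genes whose names differ in a final a or b could be compared as a ratio within each library, which no scaling between libraries can move beyond the pseudocount. For 5 of the 12 pairs tested the ratios were separated by stage (exact permutation, two-sided, p = 0.1 for each, the smallest that 3 pools against 3 allow; Benjamini-Hochberg adjusted p = 0.24 over 12 pairs). The share of separated ratios among a and b genes outside the pathway was not computed. The count is therefore no result about the Wnt genes. The difference was largest among the 5 separated pairs for the ligands *wnt10a* and *wnt10b*, which are separate genes in mammals too. The log2 ratio of *wnt10a* to *wnt10b* was -0.02, 0.19 and 0.12 in the 56 hpf pools, against 1.87, 1.92 and 2.06 in the 48 hpf pools, a difference of -1.86. The 48 hpf ratios rest on 15, 14 and 3 reads of *wnt10b*. Their small spread within the stage is therefore not read as a property of the genes. The zebrafish copies *fzd3a* and *fzd3b* had log2 ratios of 1.76, 2.49 and 1.97 at 56 hpf, against 2.81, 3.44 and 3.90 at 48 hpf (difference -1.31). The log2 fold changes of the copies had opposite signs, -0.48 for *fzd3a* and 0.84 for *fzd3b*. The copies of *tcf7l1* had ratios of 1.24, 1.23 and 1.06 at 56 hpf, against 0.94, 0.48 and 0.16 at 48 hpf (difference 0.65). For *fzd7a* over *fzd7b* the difference was -0.45, and for *fzd8a* over *fzd8b* it was -1.02, with at most 29 reads of *fzd8b* in a library. Reads that fit both copies of a pair equally were left out by the authors, so the ratios hold for the unique parts.

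**Figure D3:**
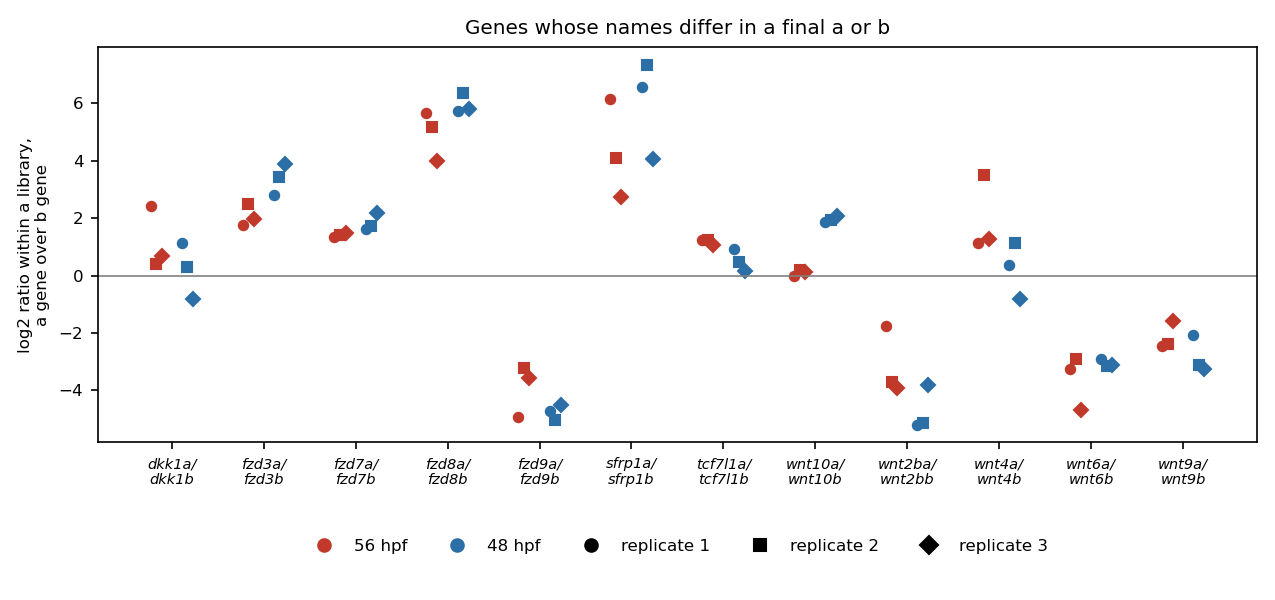
Log2 ratio of normalized counts (each plus 1) of the a gene over the b gene within each library, for the 12 pairs of Wnt pathway genes tested, with 56 hpf left of 48 hpf in each pair and a symbol for each replicate. The stages are separated for *fzd3a*/*fzd3b*, *fzd7a*/*fzd7b*, *fzd8a*/*fzd8b*, *tcf7l1a*/*tcf7l1b* and *wnt10a*/*wnt10b*.

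Wnt genes sit in old clusters, and in RefSeq's annotation of the GRCz12tu assembly, in which 62 of the 63 different names were found, 3 pairs of ligands were direct neighbours: *wnt3a* with *wnt9a*, *wnt10b* with *wnt1*, and *wnt6b* with *wnt10a*. In the first pair both genes had positive log2 fold changes (2.04 and 1.06). In the second, *wnt10b* had 67, 62 and 95 reads at 56 hpf and 15, 14 and 3 at 48 hpf. *wnt1* had 1, 3 and 12 reads at 56 hpf and 2, 5 and 4 at 48 hpf, too few for the test. In the third the log2 fold changes were 0.59 for *wnt6b* and 0.90 for *wnt10a*, neither past the test. Counting without regard to strand would leave reads of overlapping genes uncertain, and the sources used here do not say whether strand was used.

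A list of other genes of the pathway held 80 genes of these tables, of which 74 were tested. None passed the test by limma, beside 1.08% of all genes tested, while 6 had an unadjusted p under 0.05 and were higher (8.11%, beside 11.1%) and 7 were lower (9.46%, beside 7.42%). The quasi-likelihood test also called none. The likelihood ratio test and DESeq2 each called 6, which was 8.11% of 74 by the first test (beside 8.37% of all genes) and 8.33% of the 72 with an adjusted p by the second (beside 7.25%). Of the 6, *lgr6* was higher and *ror1*, *mycn*, *ccnd1*, *bmp4* and *bambia* were lower. The median log2 fold change of the 74 genes was -0.09. The R-spondin receptor gene *lgr6* had 741, 609 and 698 normalized counts at 56 hpf, against 367, 317 and 154 at 48 hpf. Its pools did not overlap (log2 fold change 1.38, SE 0.29, adjusted p = 0.0819, limma), and the adjusted p was 0.00308 by the likelihood ratio test and 0.00255 by DESeq2. *ror1*, a receptor for Wnt5 ligands, had 593, 564 and 560.1 normalized counts at 56 hpf, against 1284, 981 and 900.2 at 48 hpf (-0.87, SE 0.19, adjusted p = 0.0874, limma; 0.0160 by the likelihood ratio test and 0.0364 by DESeq2), and its relative *ror2* had a log2 fold change of -0.65 (adjusted p = 0.183). The pools of both *ror* genes did not overlap; they are named here after their values were seen.

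Of the 9 tested genes known as targets of the pathway in some tissue, 8 had log2 fold changes below 0. The other 1 (11.1%, beside 49.2% of all genes tested above 0) was *myca*. Its log2 fold change was 0.84 (unadjusted p = 0.0124, adjusted p = 0.148, limma), with overlapping pools. The list leaves out *axin2* (-0.49) and *lef1* (0.69), also targets, which were given above, so the share depends on the choice of genes. None of the 9 passed by limma, whereas *mycn*, *ccnd1* and *bmp4* passed by the likelihood ratio test and DESeq2. *mycn*, a proliferation factor, had 620.0, 578 and 578 normalized counts at 56 hpf, against 1588, 1589.9 and 730.1 at 48 hpf, without overlap (-1.05, SE 0.26, adjusted p = 0.110, limma; 0.0177 by the likelihood ratio test and 0.0189 by DESeq2). Without replicate 3 at both stages its adjusted p was 0.0129, and without replicate 3 at 48 hpf 0.00852. The first of these fits called 550 of all genes tested and the second, which had no block, 512, against 225 in the main fit. The cyclin gene *ccnd1* had 5400, 4559 and 4018 normalized counts at 56 hpf, against 9550, 11328 and 7406 at 48 hpf (-1.01, SE 0.22, adjusted p = 0.0855, limma), with an adjusted p of 0.00879 by the likelihood ratio test and 0.00547 by DESeq2. *bmp4*, a ligand of the BMP pathway, had 2964, 2109 and 1895 normalized counts at 56 hpf, against 3411, 4964 and 5769 at 48 hpf (-1.01, SE 0.29, adjusted p = 0.14, limma; 0.0456 by the likelihood ratio test and 0.0259 by DESeq2). In both genes every 56 hpf pool was below every 48 hpf pool. Many other signals also control these genes. *ptk7b* (1.74, adjusted p = 0.227), a co-receptor gene with at most 28 reads in a library, and *pygo1* (1.21, adjusted p = 0.189), a nuclear partner of β-catenin, had positive log2 fold changes without overlap between the stages. The 11 genes of the destruction complex on this list, which leaves out *axin1* and *axin2*, had log2 fold changes between -0.24 and 0.50. *apc2* varied widely within 48 hpf, with 110, 78.8 and 133 normalized counts at 56 hpf, against 36.0, 53.3 and 320 at 48 hpf (0.29, 95% interval -0.98 to 1.57), while *gsk3b*, a kinase of the complex, had a log2 fold change of 0.02 (95% interval -0.42 to 0.46). β-catenin itself, from *ctnnb1* and *ctnnb2*, had log2 fold changes of -0.25 (95% interval -0.78 to 0.29) and 0.38 (95% interval -0.13 to 0.90). *wls*, required for Wnt secretion, had one of 0.20 (95% interval -0.35 to 0.75).

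**Figure D4:**
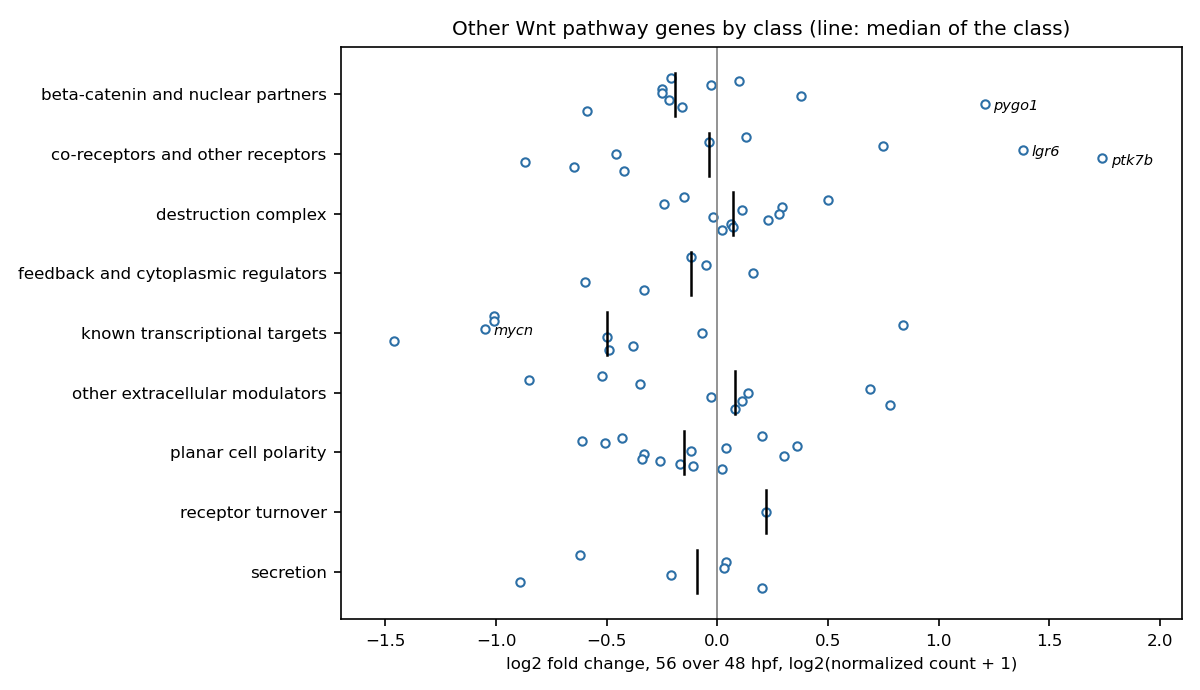
Log2 fold change, 56 over 48 hpf, on the log2(normalized count + 1) scale for the 74 other Wnt pathway genes tested, by class, with open circles for genes, none of which passed by limma, and a line at the median of each class. The median is -0.50 for the known transcriptional targets and 0.07 for the destruction complex.

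Markers of other cells and tissues that a dissected heart can carry are given here beside the Wnt genes. Of 10 skeletal muscle markers, 8 were higher at 56 hpf at an adjusted p under 0.05 (limma), with summed levels of 14276 to 22746 normalized counts at 56 hpf and 5396 to 11753 at 48 hpf. None of 6 epidermal markers passed, but all 6 had positive log2 fold changes, and their sums were 383717 to 652798 at 56 hpf and 131003 to 335442 at 48 hpf. Of 7 cartilage and arch markers 3 were higher and 1 was lower, with sums of 6465 to 8458 at 56 hpf and 6392 to 9188 at 48 hpf. Of 5 endodermal markers 4 were tested and none passed, 3 with log2 fold changes above 0 and *sox17* with -0.88, and the 5 summed to 1214 to 1535 at 56 hpf and 291 to 1045 at 48 hpf. All 7 blood markers had log2 fold changes below 0 (median -1.66), with sums of 4916 to 21336 at 56 hpf and 30391 to 49507 at 48 hpf, and *hbbe3* (-5.04), *alas2* (-1.94) and *gata1a* (-1.66) were lower at an adjusted p under 0.05. All 10 myocardial (median -0.76) and all 8 endocardial and endothelial markers (median -0.45) were also below 0, and of these *flt1* passed. Of 4 epicardial markers none passed, and *tbx18* (1.45, adjusted p = 0.0712) and *aldh1a2* (1.15, adjusted p = 0.0796) had positive values without overlap. Of 8 atrioventricular canal markers none passed, and only *klf2a* was above 0 (median -0.68). This list shares *bmp4* and *tbx2b* with the list of pathway targets, and the endocardial list shares *nfatc1* with it. Of 8 neural markers none passed and 7 were above 0 (median 0.60). All 6 liver and yolk markers tested were above 0 (median 0.72) and none passed, with sums of 844 to 16605 at 56 hpf and 1766 to 5024 at 48 hpf. The epidermal and endodermal sums were lowest in replicate 3 at 48 hpf. That pool was also the lowest for 10 of the 20 ligands tested (50%), *wnt3a* and *wnt10b* among them. It was the lowest for 20.8% of all genes tested and for 36.6% of those with a log2 fold change above 0. The part of these cells and tissues in the Wnt results was not tested. None of the muscle, epidermal, arch and endodermal markers was at or under the floor in all pools.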

How the data were processed

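The authors aligned the reads to Zv9, kept unique alignments, counted them on Ensembl genes with HTSeq and divided each count by a size factor of the library. The methods name Tophat and edgeR, whereas the submitters' processing notes name Bowtie2 2.1.0, HTSeq 0.5.4p3 and DESeq 1.10.1. The deposited values are thus a signal, namely normalized counts. Dividing them by what 1 read is worth in the library gave whole reads for 100% of values (relative tolerance 1e-06).

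Size factors were redrawn from the 6 libraries by the median of ratios (RLE), because the deposited factors shift the median of all genes. Genes were kept by filterByExpr (minimum count 10, minimum total 15). limma 3.58.1 in R 4.3.3 was run on log2(normalized count + 1) with a prior trend and the replicate number as a block, with Benjamini-Hochberg adjustment over all genes. The study adjusted for differences between its experiments, and the replicate number stood in for these, although no source ties the number to an experiment. edgeR 4.0.16 and DESeq2 1.42.0 were alternatives, as were TMM factors, the deposited factors, other pseudocounts and filters, thinned reads, a stricter threshold and leaving out pools. Fits that left out a replicate number at both stages kept the block. Those that left out a single pool had no block, so they differ from the main fit in both respects. The fits were also run on simulated counts with known changes, drawn without a replicate effect or a change in tissue composition. The outcome is not given here and lends the fits no support.

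Genes given in full were those past the test, those without overlap between the stages and a log2 fold change of at least 1 in size, the 2 with the most reads in each role, and *wnt9a*, *wnt9b*, *axin2* and *lef1*. *klf2a* was added by the same rule, and of the other pathway genes the 4 with the largest fold change without overlap. Further genes were named after their values were seen. The members and lists were chosen with earlier results of these data known.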

Additional observations from a re-analysis of the deposited data

How the results depend on the processing

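The number of genes called among all genes tested, 225, became 346 without a filter on low counts, 136 with at least 10 reads in every library, 560 with no replicate block, 1741 by edgeR's likelihood ratio test, 1509 by DESeq2, 27 at a threshold of 0.01, and 26 to 2035 when pools were left out. The 3 Wnt genes called higher became 6 by the likelihood ratio test and by DESeq2, by which 8.37% and 7.25% of all genes passed in either direction. They became 0 at a threshold of 0.01 and 0 to 7 when pools were left out. The 7 came from the fit without replicate 1 at 48 hpf, which called 1187 of all genes. These counts are therefore not read as a result about the Wnt genes. With no replicate block, by which 2.69% of all genes passed, the Wnt genes called higher were 4. With at least 10 reads in every library, a filter that *rspo4* did not pass, they were 2. The 0 other pathway genes called became 6 by both tests and 0 to 7 when pools were left out. The median log2 fold change of the Wnt genes tested was 0.04 to 0.33 when pools were left out. The cause of these shifts was not tested. For the 19 Wnt genes given in full, 351 of 377 refits stayed on the same side of the threshold. Of the rest, 10 lost a call, 16 gained one and none called the opposite direction. Only the 3 called genes had a call to lose, and the 10 losses were all theirs. They were 4 of 20 refits for *fzd10*, 3 of 19 for *rspo4* and 3 of 20 for *sfrp2*. The count of 351 is therefore no measure of stability, and the stricter threshold is not among the 377. The deviations of same-numbered pools had correlations across genes of 0.03, 0.19 and -0.05, against -0.16 to 0.09 for differently numbered pools. Only the pools of replicate 2 lay above that range, so the number gives little sign of pairing in these data. Depth limits the 6 Wnt genes that were not tested, and *rspo4* at 48 hpf.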
